A study of Drosophila melanogaster with 12 samples.

Results

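The aminoacyl-tRNA synthetases were followed here as every gene of the expression table whose KEGG field lists the pathway Aminoacyl-tRNA biosynthesis. There were 38 such genes of 13554 in the table, of which 2226 have any KEGG entry. No expression value entered this rule, but the pathway was chosen with earlier results of these data known. Of the 38 genes, 20 encode cytosolic enzymes or their subunits, 15 encode mitochondrial enzymes and 3 are no conventional synthetases. The arrays measured whole-body RNA of adult *Drosophila melanogaster* males, with 12 arrays in 4 groups of 3: fed and starved control flies, and fed and starved *dSTINGΔ* flies. Control flies were of the *w1118* stock, and mutant flies carried the *dSTINGΔ* allele, a deletion at the 5′ end of *dSTING* left by a P-element that excised imprecisely. All flies were 5 days old, had spent 4 days on regular food, and were then either left on food or kept for 24 hours with moist paper only. Each sample pooled 10 males. The mutant and the control are 1 stock each, so the allele and the rest of the stock's genome cannot be told apart, and in whole bodies fewer cells of a type and less RNA per cell cannot be told apart either.

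An aminoacyl-tRNA synthetase joins an amino acid to the tRNA that reads its codons, which makes the enzyme the step where the genetic code is applied. As a rule each amino acid has its own enzyme. Animal cells translate in the cytosol and in the mitochondrion, and most amino acids have a separate nuclear gene for each place, with the mitochondrial protein imported after synthesis. Uncharged tRNA is also a hunger signal: it activates the kinase *Gcn2*, which phosphorylates *eIF2alpha*, slows translation and raises the transcription factor that flies call *crc* and mammals call ATF4. In mammals synthetase genes are among the targets of that factor. The question here was how the genes of both compartments stood in fed and starved flies with and without *dSTING*.

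The *dSTING* signal itself was 5.85 ± 0.42 (log2, SD, n = 3) in control fed flies, 5.37 ± 0.13 in control starved, 2.24 ± 0.23 in mutant fed and 2.49 ± 0.11 in mutant starved flies. The genotype labels of all 12 arrays were thus matched by the targeted gene, which does not bear on the feeding labels. Arrays deviated from their group means by a root mean square of 0.116 to 0.209 log2 units, most on control fed replicates 1 and 3. Markers of the testis were high and those of the ovary low (log2 of the summed level of 4 genes 11.2 to 11.8 and 5.68 to 6.08). Markers of several tissues moved with the groups. The summed level of 4 accessory gland genes lay at 11.6 to 11.9 in control fed, 11 to 11.2 in control starved, 11.6 to 12 in mutant fed and 10.3 to 10.8 in mutant starved flies. For 4 fat body genes the ranges were 11.1 to 11.1, 9.97 to 10.5, 11.1 to 11.4 and 8.78 to 9.04, and for 4 hemocyte genes 8 to 8.47, 7.59 to 7.70, 7.03 to 7.30 and 6.24 to 6.53. In starved mutant against starved control flies 3 of 4 accessory gland, 1 of 4 fat body and 3 of 4 hemocyte markers were lower by the test used below. In the same comparison 1 of 4 muscle markers was lower, 1 of 4 testis markers was higher, and of 4 gut markers 2 were higher and 1 lower. Of 4 female or ovary markers 1 was higher, *Yp3*, by 0.59 on the log2 scale, and no neuronal marker was called. Over all genes 10.9% were called lower and 9.01% higher there. The muscle gene *Act88F* was lower in each of the 4 comparisons, at -0.88 and -0.78 with starvation and -1.07 and -0.97 between genotypes on the log2 scale. In the same order of groups the summed level of the 4 muscle genes lay at 11.3 to 11.6, 11.4 to 11.5, 11.4 to 11.5 and 11.1 to 11.3, that of the testis genes at 11.2 to 11.6, 11.4 to 11.6, 11.5 to 11.7 and 11.8 to 11.8, and that of the gut genes at 11.6 to 11.9, 11.2 to 11.8, 11.9 to 12.2 and 11.6 to 12. The sum of 4 neuronal genes lay at 8.68 to 9.24, 9.11 to 9.51, 9.22 to 9.55 and 9.16 to 9.52. None of these lists was at the floor as a whole, although *Fbp1*, *Fbp2* and *He* stayed low in every group (means of 1.84 to 3.23). Their part in the results on the synthetases was not tested.

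The synthetase genes were compared first as a list. In each comparison limma was fitted to the 12 arrays, and genes were called where the Benjamini-Hochberg adjusted p, taken over the whole table, was under 0.05. Starvation changed 1 of the 38 genes in control flies, which was higher, while 11.2% of all genes were called and 5.68% were called higher. In the mutant starvation changed 5 of 38, all lower, against 16.8% of all genes and 9.52% called lower. Between genotypes 4 of 38 differed in fed flies, with 3 higher and 1 lower in the mutant, against 12.5% of all genes, 6.2% higher and 6.26% lower. In starved flies 5 of 38 differed, all lower in the mutant, against 20% of all genes and 10.9% called lower. The members' shares were 2.63%, 13.2%, 10.5% and 13.2%, from which nothing is read, since the counts moved with the setting. Array quality weights gave 6 calls for starvation in the control, 8 for starvation in the mutant and 11 between genotypes in starved flies. The direction was not the same in every setting either. With arrays centred on their median, 1 gene was called higher and 3 lower for starvation in the mutant. The same numbers were called between genotypes in starved flies. Altogether 12 genes, or 31.6%, were called in at least 1 of the 4 comparisons, 6 of them cytosolic and 6 mitochondrial, and 26 genes in none, where 36% of all genes were called in at least 1. The calls in the 4 comparisons are not independent of each other, since each group of arrays enters 2 comparisons.

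The changes were also small in size. The difference of group means is given throughout on the log2 scale, and 1.4-fold, used here as a size threshold, was passed by 1 gene alone, *GluRS-m*, in both genotype comparisons. Starvation moved no synthetase gene past 1.4-fold in either genotype, whereas 8.09% of all genes in the control and 11.2% in the mutant passed it. For 33 of the 38 genes the 95% interval of the starvation difference in control flies lay wholly inside 1.4-fold in both directions, and for 29 genes it did so in the mutant. For the genotype difference this held for 34 genes in fed and 26 genes in starved flies. Among all genes the corresponding shares were 62.5%, 62.3%, 64.7% and 60.6%, and among the 38 genes 86.8%, 76.3%, 89.5% and 68.4%. The distance between the highest and lowest group mean ran from 0.06 in *ValRS* to 0.94 in *GluRS-m*, with a median of 0.27 over the 38 genes and 0.34 over all genes.

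**Figure D1:**
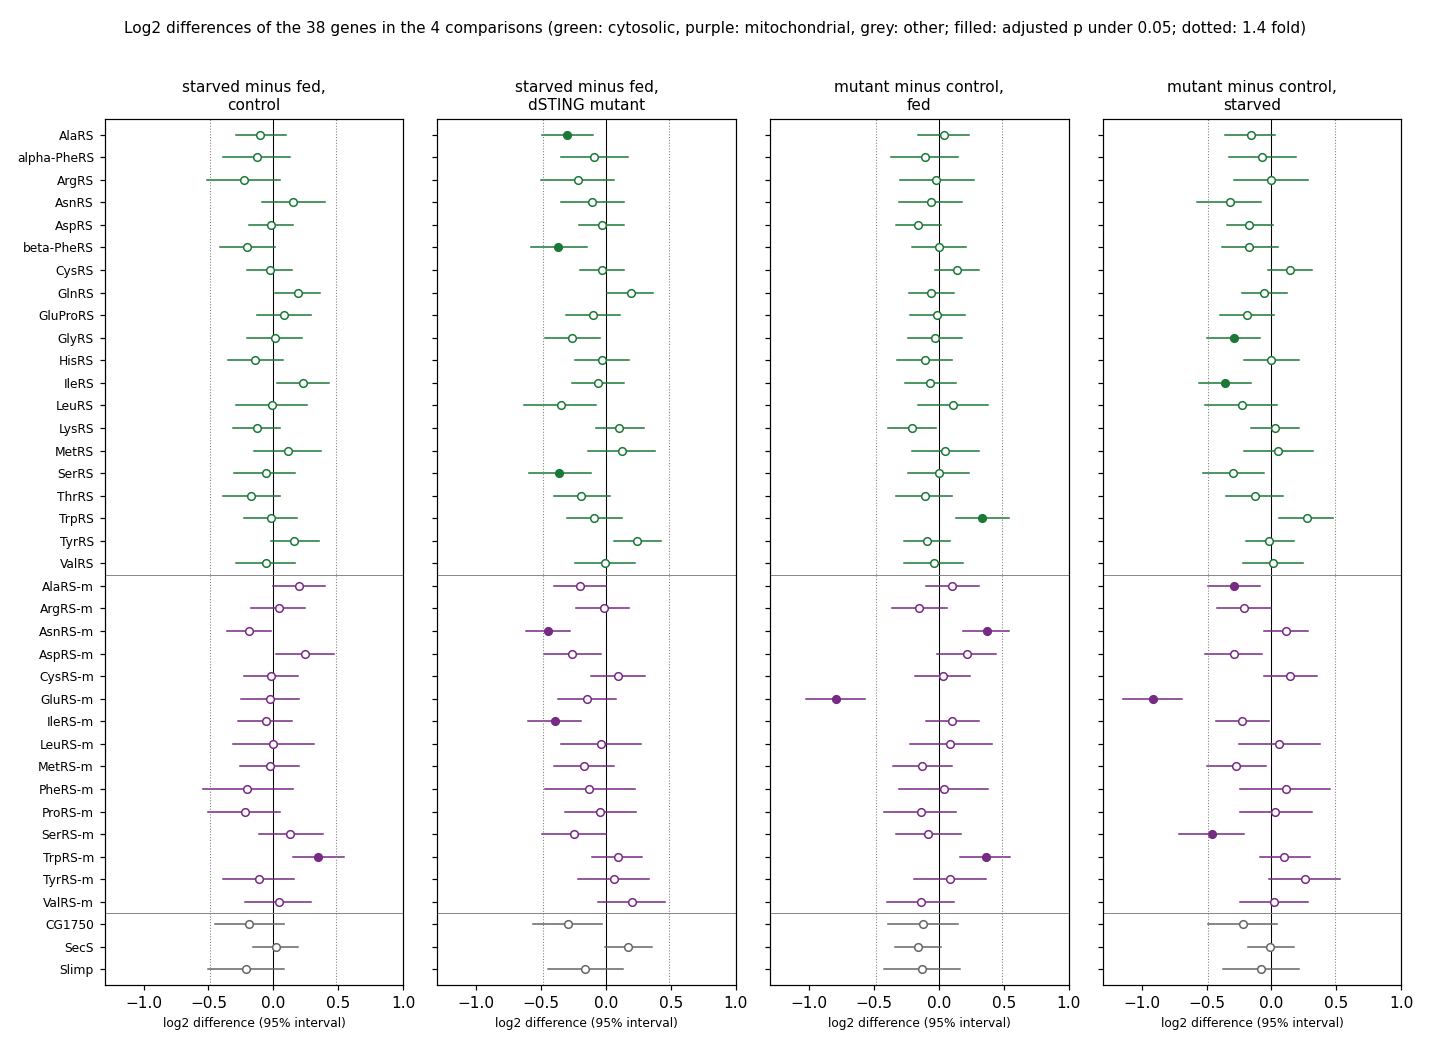
Log2 difference (x axis) of each of the 38 genes (rows) in 4 comparisons (panels), with the 95% interval as a line. Cytosolic enzymes are green, mitochondrial enzymes purple and the 3 other genes grey, filled points have an adjusted p under 0.05, and dotted lines mark 1.4-fold. GluRS-m alone lies beyond the dotted lines, at -0.79 and -0.91 in the 2 genotype panels.

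The lowest group mean fell most often in starved mutant flies. That group had the lowest mean of the 4 groups in 21 of the 38 genes, or 55.3%, against 29.0% of all genes, and the control fed group had it in 2. Starved mutants were lowest in 12 of 20 cytosolic and 7 of 15 mitochondrial genes. Starved controls were lowest in 4 of 20 cytosolic and 6 of 15 mitochondrial genes, against 21.0% of all genes. In the mutant 29 of the 38 starvation differences lay below 0, against 46.6% of all genes, whereas in control flies 24 of 38 did, against 50.6%. The median starvation difference in the mutant was -0.09 over the cytosolic and -0.13 over the mitochondrial genes, where all genes had a median of 0.02. The same medians in control flies were -0.03 and -0.02, beside 0.00 for all genes. With arrays centred on their median they were -0.0481 and -0.0843 in the mutant and -0.0284 and -0.0228 in the control. Between genotypes in starved flies the median difference was -0.1 over the cytosolic and 0.02 over the mitochondrial genes, beside 0.0 for all genes. There 14 of 20 cytosolic differences lay below 0, and 8 of 15 mitochondrial differences lay above 0. These are descriptions of the list without a test, and no gene of the 38 had a called difference between the starvation effects of the genotypes.

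*GluRS-m* (*CG4573* in the table) was the one synthetase gene whose genotype difference passed 1.4-fold. It encodes the mitochondrial glutamyl-tRNA synthetase. In human mitochondria the corresponding enzyme also puts glutamate on the tRNA for glutamine, which an amidotransferase then converts. The control fed arrays read 4.11, 4.11 and 4.21 and the control starved arrays 4.14, 4.07 and 4.14 for *GluRS-m*. The mutant fed arrays read 3.45, 3.51 and 3.10 and the mutant starved arrays 3.28, 3.14 and 3.18. All 6 mutant arrays thus lay below all 6 control arrays, and the feeding groups of a genotype lay close together. *GluRS-m* was 1.73-fold lower in the mutant among fed flies (log2 difference -0.79, standard error 0.10, adjusted p = 0.000388 from limma). Among starved flies it was 1.88-fold lower (log2 difference -0.91, standard error 0.10, adjusted p = 7.62e-05 from limma). Starvation itself gave -0.03 in the control and -0.15 in the mutant (adjusted p = 0.883 and 0.382 from limma).

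The signal of *GluRS-m* was low, with a mean of 3.70 over the 12 arrays and 17.6% of all genes below it, and the number of arrays limits its precision. In the RefSeq annotation of assembly GCF_000001215.4 the gene lies 171 bases from *TyrRS*, the cytosolic tyrosyl enzyme. *TyrRS* differed by -0.09 between genotypes in fed and by -0.02 in starved flies (adjusted p = 0.526 and 0.921 from limma). *GluRS-m* also overlaps *Serinc* in that annotation, whose genotype differences were -0.05 and 0.14 (adjusted p = 0.771 and 0.277 from limma). Neither neighbour was called with it. The cytosolic counterpart *GluProRS*, a fused enzyme for glutamate and proline, read 6.17, 5.87 and 5.95 in control fed and 6.01, 5.97 and 5.98 in mutant fed flies. In starved flies it read 5.99, 6.07 and 6.16 in the control and 5.97, 5.74 and 5.95 in the mutant. The *GluProRS* groups overlapped in fed flies and were separate in starved flies, as in 42.6% of all genes. The *GluProRS* genotype differences of -0.01 and -0.19 were not called (adjusted p = 0.963 and 0.201 from limma).

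*AsnRS-m* (*CG6796*), the mitochondrial asparaginyl enzyme, stood apart in fed mutant flies. Its signal was low, with a mean of 3.72 over the 12 arrays and 17.7% of all genes below it. Its arrays read 3.66, 3.68 and 3.74 in control fed, 3.62, 3.42 and 3.48 in control starved, and 3.64, 3.55 and 3.65 in mutant starved flies. In mutant fed flies they read 4.01, 4.07 and 4.10, above all 9 other arrays. *AsnRS-m* was 1.29-fold higher in fed mutant than in fed control flies (log2 difference 0.37, standard error 0.08, adjusted p = 0.01 from limma). In the mutant it fell by 0.45 on the log2 scale with starvation (standard error 0.08, adjusted p = 0.00157 from limma), and the 2 calls share the mutant fed arrays. The genotype call was lost when the 6 arrays of fed flies were fitted alone (adjusted p = 0.0539 from limma). The control's starvation difference of -0.19 was not called (adjusted p = 0.138 from limma), and the difference between both starvation effects was -0.26 (adjusted p = 0.257 from limma). The gene overlaps *NiPp1* in RefSeq, which was also higher in fed mutant flies, by 0.35 (adjusted p = 0.0313 from limma), but differed by -0.07 with starvation in the mutant (adjusted p = 0.704 from limma). The RefSeq table used gives no strand, so whether the overlap touches the probes was not tested. The cytosolic *AsnRS* read 5.24, 5.00 and 5.00 in control fed and 4.97, 4.97 and 5.10 in mutant fed flies, overlapping values with a difference of -0.06 (adjusted p = 0.773 from limma).

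Both tryptophanyl enzymes were higher in the mutant under fed conditions. The mitochondrial gene *TrpRS-m* (*CG7441*) read 8.68, 8.95 and 8.80 in control fed and 9.11, 9.27 and 9.12 in mutant fed flies. It read 9.09, 9.16 and 9.20 in control starved and 9.30, 9.27 and 9.19 in mutant starved flies. The control fed arrays were thus the low ones, and the other 9 lay above them. *TrpRS-m* was 1.28-fold higher in fed mutants (log2 difference 0.36, standard error 0.09, adjusted p = 0.0203 from limma), and starvation raised it 1.27-fold in control flies (log2 difference 0.34, standard error 0.09, adjusted p = 0.0307 from limma). This was the only starvation call among the 38 genes in control flies, and both calls rest on the same control fed arrays, replicates 1 and 3 of which varied most over all genes. Without control fed replicate 3 neither held (adjusted p = 0.052 and 0.0864 from limma). The genotype call was also lost without mutant fed replicate 2 (adjusted p = 0.0792 from limma) and the starvation call without any 1 of the control starved arrays (adjusted p up to 0.094 from limma).

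The cytosolic *TrpRS* (*Aats-trp*) read 5.49, 5.57 and 5.62 in control fed and 5.91, 5.95 and 5.82 in mutant fed flies. In starved flies it read 5.55, 5.35 and 5.70 in the control and 5.72, 5.83 and 5.85 in the mutant. The 6 mutant arrays lay above the 6 control arrays, by the narrow margin of 5.72 against 5.70 among starved flies. The genotype difference of *TrpRS* was called among fed flies, at 0.33 (standard error 0.10, adjusted p = 0.0385 from limma), and missed the threshold at 0.27 among starved flies (adjusted p = 0.0686 from limma). The call in fed flies was lost in 10 of the 12 fits that left out 1 array, all but those without control starved replicate 2 or 3, with adjusted p up to 0.115 from limma. Starvation differences of *TrpRS* were -0.02 and -0.09 and were not called.

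Both isoleucyl enzymes were lower in starved mutants than in 1 other group. *IleRS-m* (*CG5414*) for isoleucine was lowest in starved mutants, with 2.57, 2.58 and 2.49, where mutant fed flies had 3.10, 2.84 and 2.88. Control flies had 2.96, 2.85 and 2.70 when fed and 2.84, 2.78 and 2.71 when starved. Its fall of 0.39 with starvation in the mutant was called (standard error 0.09, adjusted p = 0.0115 from limma) but not without mutant fed replicate 1 (adjusted p = 0.0609 from limma). *IleRS-m* had a mean signal of 2.78, with only 8.80% of all genes below it, and overlaps *IntS9*, which differed by -0.49 in the same comparison (adjusted p = 0.0538 from limma). The cytosolic *IleRS* read 6.01, 5.88 and 5.74 in control fed, 6.17, 6.13 and 6.03 in control starved, 5.81, 5.80 and 5.83 in mutant fed and 5.88, 5.67 and 5.71 in mutant starved flies. The starved groups of *IleRS* did not overlap and differed by -0.36 (standard error 0.09, adjusted p = 0.0155 from limma), while its fed groups overlapped (-0.07, adjusted p = 0.700 from limma). The *IleRS* call was lost without control starved replicate 1 or 2 or mutant starved replicate 2 or 3 (adjusted p between 0.0537 and 0.0674 from limma).

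*SerRS-m* (*Aats-ser*), the mitochondrial seryl enzyme, was lower in starved mutants than in starved controls. It read 6.45, 6.70 and 6.37 in control starved and 6.09, 6.04 and 6.01 in mutant starved flies. Fed flies had 6.48, 6.38 and 6.26 in the control and 6.45, 6.07 and 6.36 in the mutant, with overlap. The difference in starved flies was -0.46 (standard error 0.11, adjusted p = 0.0137 from limma), and without control starved replicate 2, the highest array, it was -0.36 and not called (adjusted p = 0.0706 from limma). The overlapping gene *Nagk* moved the other way, being 0.48 higher in fed and 0.56 higher in starved mutants (adjusted p = 0.00226 and 0.000511 from limma). The cytosolic *SerRS* (*CG17259*) read 6.63, 6.76 and 6.59 in control fed, 6.49, 6.55 and 6.76 in control starved, 6.82, 6.59 and 6.57 in mutant fed and 6.29, 6.46 and 6.15 in mutant starved flies. Its low group was again the starved mutant, 0.36 below the fed mutant (standard error 0.11, adjusted p = 0.0408 from limma) and 0.30 below the starved control, which missed the threshold (adjusted p = 0.0754 from limma). The *SerRS* call was lost in 6 of the 12 fits without 1 array, which left out any mutant fed array, control starved replicate 2 or mutant starved replicate 1 or 3 (adjusted p up to 0.166 from limma).

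The alanyl enzymes gave 1 call each. *AlaRS-m* (*Aats-ala-m*), the mitochondrial one, read 4.82, 4.78 and 5.07 in control starved and 4.61, 4.50 and 4.68 in mutant starved flies, and fed flies had 4.69, 4.75 and 4.64 in the control and 4.81, 4.85 and 4.73 in the mutant. Its difference between starved genotypes was -0.29 (standard error 0.09, adjusted p = 0.043 from limma). The cytosolic *AlaRS* (*Aats-ala*) read 5.52, 5.42 and 5.37 in control fed, 5.30, 5.30 and 5.41 in control starved, 5.55, 5.37 and 5.49 in mutant fed and 5.17, 5.30 and 5.05 in mutant starved flies. It fell by 0.30 with starvation in the mutant (standard error 0.09, adjusted p = 0.0377 from limma). Both calls lay close to the threshold, and leaving out 1 array ended the *AlaRS-m* call in 9 and the *AlaRS* call in 6 of 12 fits (adjusted p up to 0.157 and 0.148 from limma). The *AlaRS-m* call held only without control fed replicate 1 or 3 or control starved replicate 2, and the *AlaRS* call was lost without replicate 1 or 3 of either mutant group or control starved replicate 1 or 2.

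**Figure D2:**
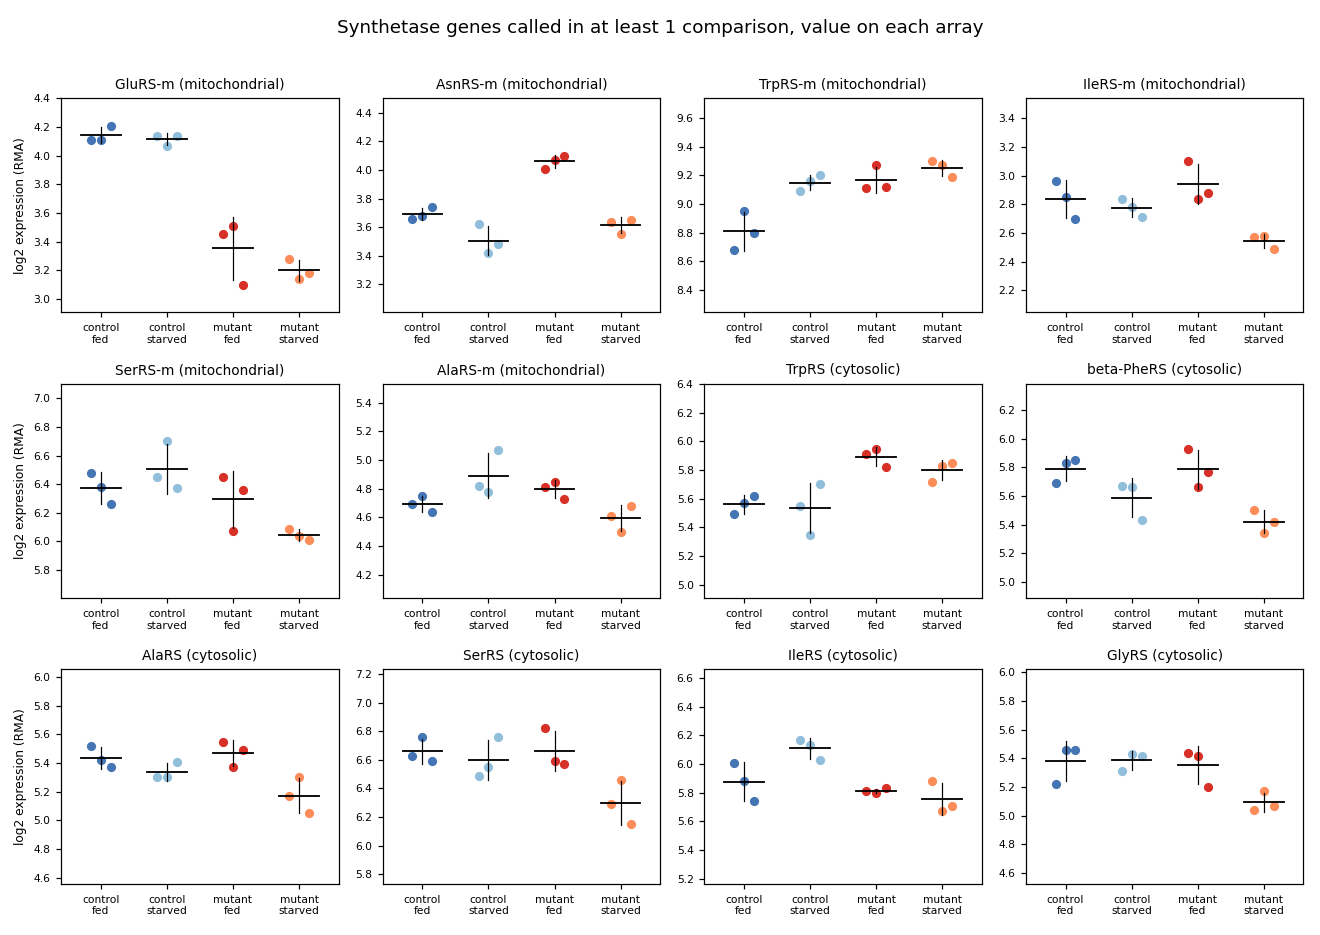
Log2 expression (y axis, RMA scale, the same span in each panel) of the 12 synthetase genes called in at least 1 comparison, with 1 point per array, a horizontal bar for the mean and a vertical line for the SD of 3 arrays. GluRS-m separates by genotype, AsnRS-m is high in mutant fed flies alone, TrpRS-m is low in control fed flies alone, and most of the other genes have their lowest mean in mutant starved flies.

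The cytosolic *beta-PheRS* and *GlyRS* complete the called set. Phenylalanyl-tRNA synthetase is built in the cytosol from alpha and beta subunits encoded by separate genes. *beta-PheRS* (*CG5706*) read 5.69, 5.83 and 5.85 in control fed, 5.67, 5.66 and 5.43 in control starved, 5.93, 5.66 and 5.77 in mutant fed and 5.5, 5.34 and 5.42 in mutant starved flies. It fell by 0.37 with starvation in the mutant (standard error 0.10, adjusted p = 0.0216 from limma), and the call was lost in 4 of 12 fits, those without mutant fed replicate 1 or 3 or mutant starved replicate 2 or 3 (adjusted p up to 0.104 from limma). The *alpha-PheRS* subunit read 5.69, 5.70 and 5.47 in control fed, 5.42, 5.57 and 5.49 in control starved, 5.79, 5.32 and 5.42 in mutant fed and 5.31, 5.52 and 5.45 in mutant starved flies. It differed by -0.09 in that comparison, which was not called (adjusted p = 0.683 from limma), and the single-chain mitochondrial *PheRS-m* by -0.13 (adjusted p = 0.655 from limma). *PheRS-m* read 6.95, 7.43 and 7.67 in control fed, 7, 7.11 and 7.35 in control starved, 7.56, 7.37 and 7.24 in mutant fed and 7.24, 7.29 and 7.25 in mutant starved flies. The fed and starved groups of both genes overlapped in each genotype. *GlyRS* (*Aats-gly*), which charges glycine and is annotated to both the cytoplasm and the mitochondrion, read 5.31, 5.43 and 5.42 in control starved and 5.04, 5.17 and 5.07 in mutant starved flies. Fed flies had 5.22, 5.46 and 5.46 in the control and 5.44, 5.42 and 5.20 in the mutant. The difference of *GlyRS* between starved genotypes was -0.29 (standard error 0.10, adjusted p = 0.0483 from limma), and it held only in the fits without control fed replicate 1 or 3 or mutant fed replicate 3 and was lost in the other 9 of 12 (adjusted p up to 0.15 from limma).

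The remaining 14 cytosolic genes were not called in any comparison. They charge lysine, histidine, tyrosine, valine, arginine, methionine, cysteine, glutamine, aspartate, threonine, glutamate with proline, asparagine and leucine, or form the alpha subunit for phenylalanine. *ValRS* was the steadiest, with arrays from 4.51 to 4.85 and group means that spanned 0.06. *AsnRS* came nearest to the threshold, at -0.32 between starved genotypes (adjusted p = 0.0651 from limma), with 5.01, 5.30 and 5.39 in the control and 4.83, 4.84 and 5.06 in the mutant. *LeuRS* was at -0.35 with starvation in the mutant (adjusted p = 0.0761 from limma). Its mutant arrays read 5.83, 5.84 and 5.81 when fed and 5.48, 5.28 and 5.66 when starved, without overlap, as in 38.8% of all genes. *TyrRS* was the gene with the highest starvation difference in the mutant, 0.24 (adjusted p = 0.0717 from limma). Across the cytosolic genes the starvation differences ran from -0.23 to 0.23 in the control and from -0.37 to 0.24 in the mutant, and the genotype differences from -0.21 to 0.33 in fed and from -0.36 to 0.27 in starved flies. Of the 8 cytosolic genes whose mammalian products join the multisynthetase complex (those for arginine, aspartate, glutamine, glutamate with proline, isoleucine, leucine, lysine and methionine), *IleRS* alone was called, in 1 comparison. Over all genes 36% were called in at least 1.

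The remaining 9 mitochondrial genes, for arginine, aspartate, cysteine, leucine, methionine, phenylalanine, proline, tyrosine and valine, were not called either. *AspRS-m* came nearest, at -0.29 between starved genotypes (adjusted p = 0.0672 from limma), with arrays of 7.10, 7.11 and 6.85 in control fed, 7.23, 7.30 and 7.26 in control starved, 7.28, 7.16 and 7.26 in mutant fed and 7.07, 6.77 and 7.07 in mutant starved flies. With starvation it differed by 0.24 in control and by -0.26 in mutant flies (adjusted p = 0.139 and 0.109 from limma). It overlaps *CG13282* in RefSeq, whose genotype differences were -1 in fed and -1.24 in starved flies on the log2 scale. The 3 genes of the pathway that are no conventional synthetases were *SecS*, which makes selenocysteinyl-tRNA, *Slimp*, a seryl synthetase-like mitochondrial protein, and *CG1750*, annotated as the formyltransferase for the mitochondrial initiator methionyl-tRNA. None was called, and their differences lay between -0.29 and 0.17 in the 4 comparisons.

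Synthetases fall into class I and class II by the fold of the catalytic domain. Starvation in the mutant gave 4 called genes, all lower, of 16 in class II and 1 of 18 in class I, with medians of -0.19 and -0.03, where 9.52% of all genes were called lower. *GluProRS*, which holds a domain of each class, and the 3 other genes are not counted here. In starved flies 3 of 16 class II and 2 of 18 class I genes were lower in the mutant, with medians of -0.16 and 0.00, where 10.9% of all genes were called lower. The difference between the classes was not tested. Without mutant fed replicate 1 only 1 starvation call in the mutant stayed, that of *AsnRS-m* in class II. Those of *beta-PheRS*, *AlaRS* and *SerRS* in class II and *IleRS-m* in class I were lost (adjusted p from 0.0609 to 0.166 from limma).

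How often enzymes of the same amino acid in the 2 compartments shared a direction varied with the comparison. Most of these differences were not called, and whether partners move together was not tested. The 15 mitochondrial enzymes form 16 pairs with cytosolic genes, since phenylalanine has 2 cytosolic subunits. In control flies the starvation differences of both partners had the same sign in 3 of 16 pairs, in the mutant in 12, and the genotype differences in 8 pairs in fed and 8 in starved flies. Signs were taken after rounding to 2 decimals, so pairs with a partner at -0.0 were not counted. This left out pairs with both partners negative: the leucyl enzymes for starvation in the control, and the seryl (fed) and arginyl (starved) enzymes between genotypes. Both partners were called together in 1 case, the tryptophanyl enzymes in fed flies (0.36 and 0.33). For glutamate the mitochondrial enzyme was 0.79 to 0.91 lower in the mutant on the log2 scale while the cytosolic enzyme differed by -0.01 and -0.19. Amino acids without a mitochondrial gene of their own among the 38 were lysine, histidine, threonine, glutamine and glycine. Their cytosolic genes gave the *GlyRS* call alone.

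**Figure D3:**
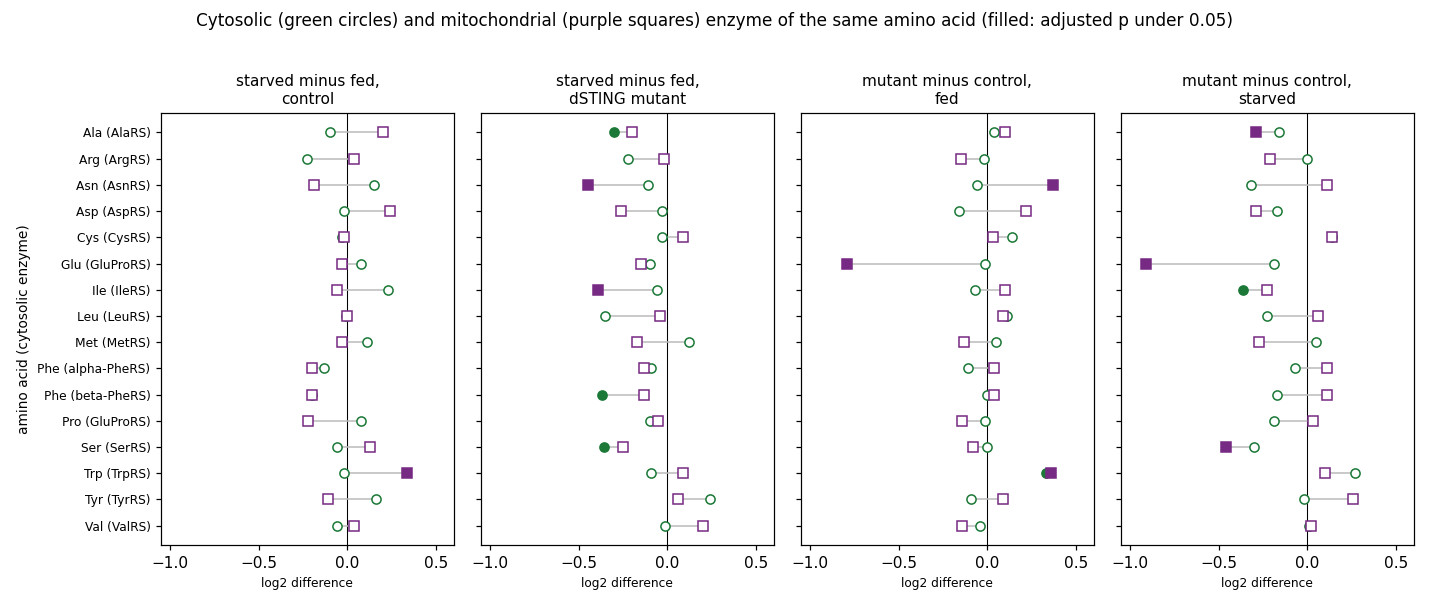
Log2 difference (x axis) of the cytosolic enzyme (green circle) and the mitochondrial enzyme (purple square) of the same amino acid (rows) in 4 comparisons (panels), joined by a grey line. Filled symbols have an adjusted p under 0.05, and the tryptophanyl enzymes in fed flies are the only pair with both filled.

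Whether starvation acted differently in the 2 genotypes was tested by the interaction of genotype and feeding. None of the 38 genes was called, against 1.33% of all genes, and array quality weights called 3 (1 higher, 2 lower). An unadjusted p under 0.05 in limma was reached by 6 genes, or 15.8%, against 17.8% of all genes. Nothing is read from this count. The 6 were *AspRS-m*, *AlaRS-m*, *SerRS-m*, *IleRS-m*, *AsnRS-m* and *IleRS*, all with a more negative starvation effect in the mutant, from -0.50 in *AspRS-m* to -0.26 in *AsnRS-m*. The lowest adjusted p was that of *AspRS-m* (0.0999 from limma). The larger number of starvation calls in the mutant is thus not shown to differ from that in the control for any single gene.

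Among other genes that make, sense or use charged tRNA, *AsnS* and *Thor* moved furthest. Of 11 measured genes of amino acid sensing and translation control, 1 was called higher and 1 lower with starvation in the control. With starvation in the mutant 2 were higher and 1 lower. Between genotypes 1 was lower in fed flies, and 2 were higher and 1 lower in starved flies. Over all genes 11.2%, 16.8%, 12.5% and 20% were called in these comparisons, and nothing is read from the counts. *AsnS*, the asparagine synthetase and in mammals a target of ATF4, was lower in each comparison. Its arrays read 7.12, 6.56 and 7.07 in control fed, 6.16, 6.25 and 6.30 in control starved, 5.86, 5.96 and 5.95 in mutant fed and 4.97, 5.38 and 4.74 in mutant starved flies, with no overlap between any pair of groups. *AsnS* fell by 0.68 and 0.90 with starvation in control and mutant (adjusted p = 0.0233 and 0.00202 from limma). It was lower in the mutant by 0.99 in fed and 1.21 in starved flies on the log2 scale (adjusted p = 0.00196 and 0.000281 from limma). *Thor*, the translation repressor 4E-BP, moved the other way with starvation, by 0.59 in the control and 1.31 in the mutant (adjusted p = 0.0115 and 1.46e-05 from limma). *Thor* read 11.35, 10.99 and 11.40 in control starved and 11.87, 11.97 and 11.83 in mutant starved flies, a difference of 0.64 (adjusted p = 0.00252 from limma). *Sesn*, an inhibitor of TOR signalling, rose by 0.43 with starvation in the mutant (adjusted p = 0.0122 from limma), and *Gcn2* was 0.34 higher in starved mutants (adjusted p = 0.0481 from limma). The kinase *PEK*, *eIF2alpha*, *crc*, *PPP1R15*, *mTor*, *raptor* and *S6k* were called in no comparison, with *crc* between -0.11 and -0.04.

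The factors that use charged tRNA downstream were counted group by group, beside the 36% of all genes called in at least 1 of the 4 comparisons. The factor eIF2 delivers the initiator tRNA, and eIF2B is its exchange factor. Of their 8 subunits, *eIF2beta* alone was called, at -0.38 with starvation in the mutant and -0.29 and -0.42 between genotypes in fed and starved flies (adjusted p = 0.00419, 0.0278 and 0.00199 from limma). Of 7 cytosolic elongation factor genes, *eEF1beta* was higher in the mutant by 0.33 in fed and 0.29 in starved flies, *eEF1gamma* was 0.44 lower in starved mutants on the log2 scale and *eEF1delta* fell by 0.38 with starvation in the mutant (adjusted p = 0.0103, 0.0145, 0.0141 and 0.0064 from limma). Of 5 genes listed as mitochondrial elongation factors 4 were called in at least 1 comparison, in both directions, where 36% of all genes were called in at least 1. The uncalled gene was listed as *mEFG2* and has the RefSeq symbol *mRRF2*. *mEFTu1*, the mitochondrial factor that carries charged tRNA to the ribosome, read 6.48, 6.76 and 6.79 in control fed and 6.33, 6.30 and 6.12 in mutant fed flies, and in starved flies 6.48, 6.69 and 6.52 in the control and 5.76, 5.61 and 5.90 in the mutant. Its genotype difference was -0.43 and -0.81 and its starvation difference in the mutant -0.49 (adjusted p = 0.0265, 0.000325 and 0.00857 from limma). Its exchange factor *mEFTs* was higher in the mutant by 0.38 and 0.33 (adjusted p = 0.00629 and 0.00871 from limma), the second gene for the carrier, *mEFTu2*, by 0.31 in starved flies (adjusted p = 0.0377 from limma), and *mEFG1*, which moves the ribosome along, was lower there by 0.42 (adjusted p = 0.00988 from limma).

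Among partners of the enzymes, the multisynthetase complex scaffold *AIMP1* was higher in the mutant, with 5.42, 5.58 and 5.83 against 5.08, 5.16 and 4.81 in fed flies and 5.64, 5.74 and 5.66 against 5.34, 5.32 and 5.15 in starved flies. The differences of *AIMP1* were 0.59 and 0.41 (adjusted p = 0.00618 and 0.0273 from limma), with no overlap, and the scaffolds *AIMP2* and *AIMP3* were not called. *GatA* and *GatB*, subunits of the amidotransferase that turns mitochondrial glutamyl-tRNA into glutaminyl-tRNA, were not called, and their genotype differences of 0.00 and -0.19 in fed and 0.22 and -0.06 in starved flies stood beside the -0.79 and -0.91 of *GluRS-m*. Of 9 genes of tRNA maturation, *Tgt*, which exchanges a base in the anticodon, was 0.70 lower in fed mutants on the log2 scale (adjusted p = 0.00186 from limma). *RNaseZ*, which trims the tRNA end, was 0.53 lower in starved mutants on that scale (adjusted p = 0.0202 from limma). *Mt2*, a tRNA methyltransferase, was 0.30 higher there (adjusted p = 0.0485 from limma), at a low signal with group means of 1.99 to 2.29. Over all genes 36% were called in at least 1 comparison. The lists of these genes had medians between -0.20 and 0.16 in the 4 comparisons.

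**Figure D4:**
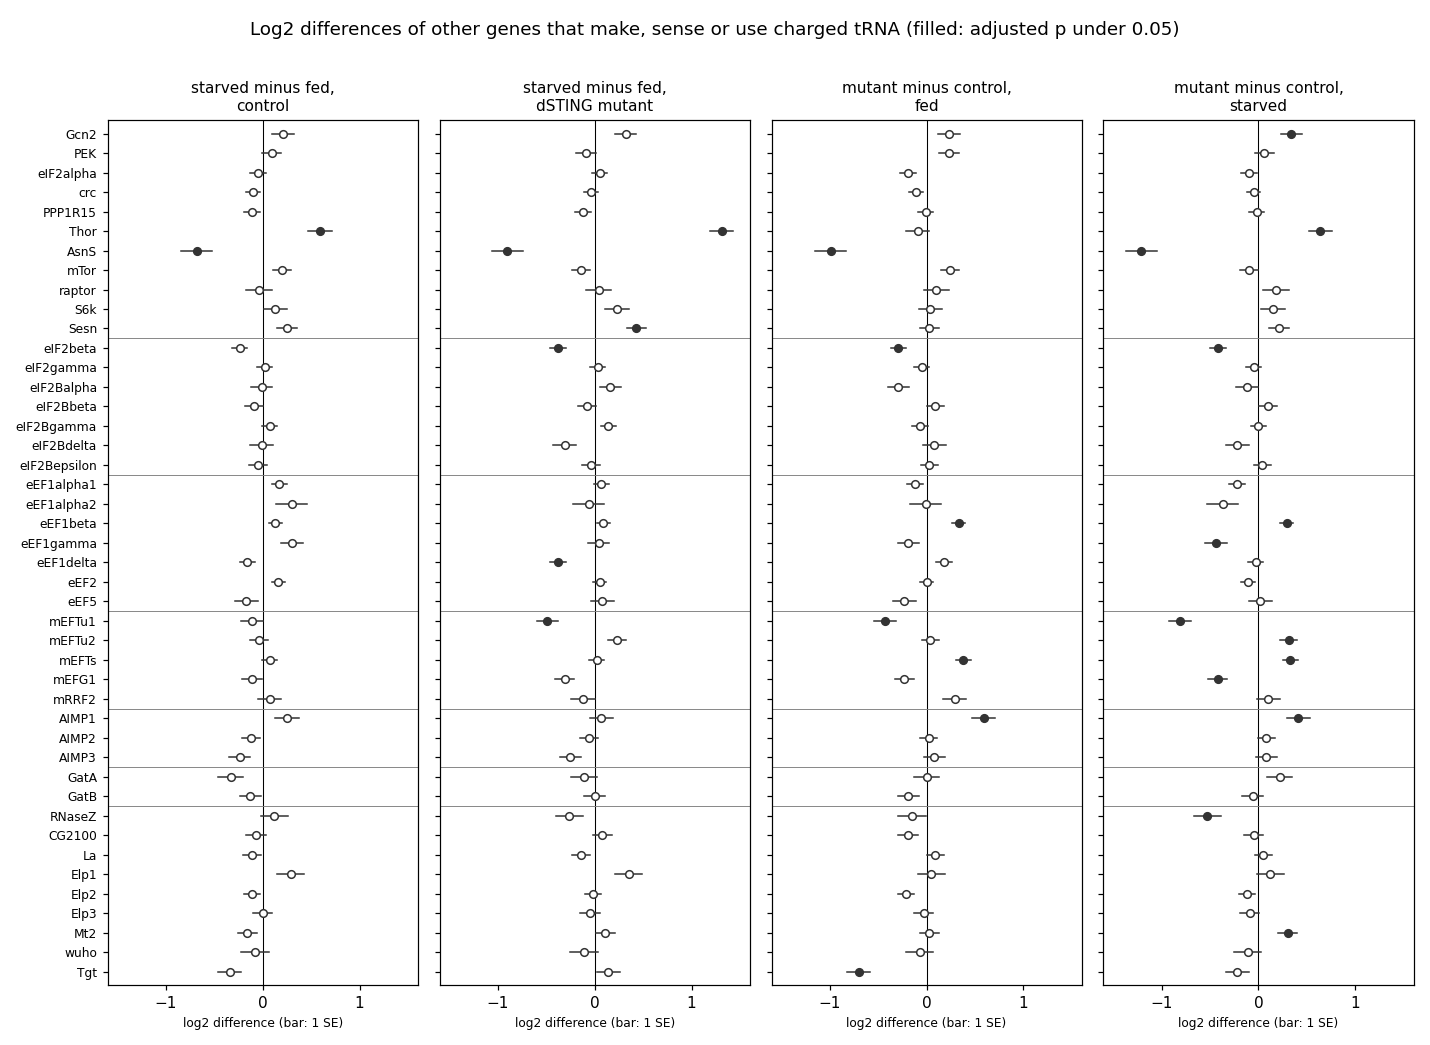
Log2 difference (x axis, bar 1 standard error) of 44 other genes that make, sense or use charged tRNA (rows) in 4 comparisons (panels). Grey lines part, from top to bottom, amino acid sensing, eIF2 and eIF2B, cytosolic elongation, mitochondrial elongation, scaffolds, amidotransferase and tRNA maturation, and filled points have an adjusted p under 0.05. AsnS is to the left in all 4 panels, from -0.68 to -1.21, and Thor is to the right with starvation.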

How the data were processed

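Total RNA of whole males was hybridised to Affymetrix Drosophila Gene 1.0 ST arrays, and the authors normalized the 12 arrays by RMA with affy 1.48.0 in R 3.2.0. The deposited table holds, for each of 13554 Entrez genes, a log2 value on every array, and the sample records hold the same log2 values to 2 decimals. The table's columns were assigned to groups by name, and values of single replicates, the fits without 1 array and the replicate block come from the sample records. The genome build behind the deposited values is not given in the sources used here, and columns with the authors' own comparisons (t, p, q and fold change) were not used.

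Members were rows with the KEGG entry, named through RefSeq (all 38 matched, 13263 of the table's identifiers in all). Compartments follow RefSeq symbols, and GlyRS, annotated to both, is counted as cytosolic. The members and the gene lists were chosen with earlier results of these data known. One mean per group was fitted to the 12 arrays with limma 3.58.1 in R 4.3.3 (8 residual and 4.50 prior degrees of freedom), adjusted by Benjamini-Hochberg over all genes, and tested on simulated data. No filter on low values was applied. Replicates are separate pools of flies, and nothing states separate cultures, so p-values measure only the spread between these samples. Values on each array are given for all called members and for partners that differ in call. Gcn1 and GatC of the lists had no matched row.

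Alternatives were the 6 arrays of a comparison alone, a replicate block, trended and robust empirical Bayes, array weights, median centring, only genes above the median signal, a fold change over 1.4, each array left out, and genes serving both compartments left out.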

Additional observations from a re-analysis of the deposited data

How the results depend on the processing

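None of the 15 calls changed its direction under an alternative that gave it a value, and 2 were lost under none of these, both genotype calls of GluRS-m (-0.868 to -0.663 in fed and -0.957 to -0.881 in starved flies, adjusted p at most 0.0084 and 0.000609 from limma). The starvation call of AsnRS-m in the mutant (-0.472 to -0.406) was lost only where a fold change over 1.4 was asked for. Beside the fits without 1 array and the fold change, other settings ended the calls of AlaRS, SerRS and GlyRS in 3 cases each, AlaRS-m in 4, TrpRS in 2, and AsnRS-m in fed flies and both calls of TrpRS-m in 1 each. The numbers of called genes, given as in the report for starvation in the control, starvation in the mutant, genotype in fed and genotype in starved flies (1, 5, 4 and 5), moved as follows. With the 6 arrays of a comparison alone they were 0 for starvation in the control and 1 for genotype in fed flies. With array quality weights they were 6 (2 higher, 4 lower) for starvation in the control and 8 (1 higher, 7 lower) in the mutant. The same weights gave 11 (2 higher, 9 lower) for genotype in starved flies, and 3 for the interaction, which had 0. With arrays centred on their median they were 4 (1 higher, 3 lower) for starvation in the mutant and 4 (1 higher, 3 lower) for genotype in starved flies. Among the 14 members above the median signal they were 2 (1 higher, 1 lower), 1 and 3 for starvation in the mutant and genotype in fed and starved flies. With a fold change over 1.4 they were 0, 0, 1 and 1. Trended and robust empirical Bayes gave 3 for genotype in starved flies. Leaving out 1 array gave 0 to 4, 1 to 5, 2 to 4 and 2 to 7, and 0 to 0 for the interaction. The replicate numbers did not pair the samples, since of 18 pairs of the same number r ran from -0.451 to 0.37 with 4 over 0.1 and 3 of 12 samples were closest to their own number, and a replicate block gave 3 calls for starvation in the mutant and 3 for genotype in starved flies. Among genes above the median signal the median differences moved to 0.0782 (cytosolic) and 0.188 (mitochondrial) for starvation in the control, -0.0325 (cytosolic) for starvation in the mutant, and 0.125 and -0.0929 (mitochondrial) for genotype in fed and starved flies. With array weights the cytosolic median for starvation in the control was -0.0725. Without 1 array the cytosolic medians were -0.085 to -0.00167, -0.107 to -0.0583, -0.07 to -0.000833 and -0.114 to -0.0833 in the 4 comparisons, and the mitochondrial medians -0.0383 to 0.00667, -0.135 to -0.105, -0.0317 to 0.0917 and -0.11 to 0.0833. The cause was not tested. With 3 arrays a group, the number of arrays limits how small a difference could be called. A planned count of promoter motifs was not run, since no promoter sequence was at hand.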
